A study of Mus musculus with 8 samples.

Results

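The clustered protocadherin genes were taken as every gene of the expression table whose name begins with Pcdha, Pcdhb or Pcdhg. This gave 31 members among 18094 genes, of which 5 belong to the alpha cluster, 12 to the beta cluster and 14 to the gamma cluster. All members but one are variable isoforms, and the exception, Pcdhgc4, is the only C-type isoform in the table. RNA-seq libraries came from 4 groups of cells of the mouse embryonic stem cell line E14Tg2A, with 2 libraries in each. WT mESCs and CTCF-K20R mESCs (day 0) were grown on fibroblast feeders that mitomycin C had stopped from dividing, in medium with LIF and the 2i inhibitors. WT EBs and CTCF-K20R EBs (day 4) were embryoid bodies, which are aggregates made in hanging drops, in serum and without LIF, where differentiation begins. The CTCF-K20R cells carry arginine in place of lysine 20 of CTCF, a change introduced at the endogenous gene with CRISPR/Cas9 and a donor vector, after which colonies were picked by drug selection, sequencing and Western blot. The comparisons ask how the expression of a locus known for its dependence on CTCF differs when this lysine cannot be acetylated.

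Clustered protocadherins are cadherin-related adhesion proteins of the cell surface, best known in neurons, where the combination that a cell displays gives it an identity that sister branches recognise and avoid. In the alpha and gamma clusters each variable isoform has its own promoter and its own large first exon, which holds the whole extracellular part, and this exon is spliced to constant exons shared by the whole cluster that encode the intracellular end. Beta genes have no shared constant exons, and each is a single large exon with its own promoter. CTCF and cohesin bind most variable promoters and distal enhancers and bring a chosen promoter into contact with an enhancer. DNA methylation of the promoters, which Dnmt3b deposits, and the chromatin protein Smchd1 are known to restrain the clusters. C-type isoforms lie at the ends of the alpha and gamma clusters and are used more constitutively than the variable ones. The data here are gene expression, so promoter contacts and CTCF binding were not measured by them.

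The values are normalized counts, that is, read counts per gene that the authors scaled by gene and library with DESeq2. They summed to between 19412659 and 21311513 per library, and 3 reads, the limit of detection used, corresponded to 2.43 to 3.44 of these units. The limit covers counting error only, since no molecular identifiers were used. Because the scaling also varies by gene, the limit is approximate for a single gene. Replicate pairs were first compared by the squared difference of a pair divided by that of independently drawn reads, over genes with at least 20 normalized counts. This mean was 0.313 for the WT mESC pair and 0.278 for the WT EB pair, against 4.00 and 4.36 for the CTCF-K20R pairs of day 0 and day 4. On both days the WT pair differed less than sampling noise allows for, and it was counted as 1 sample, so that the error of every test comes from the CTCF-K20R pairs. The study describes its libraries as biological replicates, but the sources do not say which clones or cultures they came from. The p-values measure the spread between these samples, and the genotype cannot be told apart from differences between clones or cultures. Ctcf itself was at 4241 and 4256 normalized counts in the WT EBs and at 4926 and 4771 in the CTCF-K20R EBs, which checks expression but not the point mutation.

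The 3 clusters lie one after another on the plus strand of mouse chromosome 18 (GRCm38, GENCODE vM21). The alpha genes run from 36930184 to 37187661, the beta genes from 37264938 to 37524479 and the gamma genes from 37661793 to 37841873, over 257.5, 259.5 and 180.1 kb. GENCODE vM21 lists 58 genes of these names in the clusters, and the 27 that the table lacks were not analysed here. The identifier that the table names Pcdha10, ENSMUSG00000007440, is called Pcdha11 in that annotation. Shared constant exons limit how well reads can be given to single genes. Of the 31-base words in a gene's transcripts, between 9.3% and 38.3% occur in no other gene for the alpha members (median 37.0%), 32.5% to 62.6% for the gamma members (median 53.6%) and 82.5% to 94.8% for the beta members (median 89.9%). The value of an alpha or gamma gene is therefore an estimate that divides the reads of the constant exons among isoforms, and the lowest share belongs to Pcdha4. Annotated transcripts named Gm42416, Gm37013 and Gm37388 read through the locus on the same strand, and how the authors' counting treated strand is not given in the sources used here.

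Genes were tested when their 8 libraries averaged 10 normalized counts or more. This filter kept 18 of the 31 members, namely 2 alpha genes (Pcdha4 and Pcdha10), 3 beta genes (Pcdhb14, Pcdhb17 and Pcdhb22) and every gamma gene except Pcdhga6. Pcdha4, Pcdha10 and Pcdhb17 reached it mainly through the WT EBs, the group in which they were highest, so counts over the tested members are descriptions. Pcdhb15 was at 0 in all 8 libraries. Per kilobase of the longest annotated transcript, the mean over the 8 libraries was 101 normalized counts for Pcdhgc4 and ranged from 1.2 to 17.6 for the variable gamma genes, from 0 to 3.76 for the beta genes and from 0.202 to 2.15 for the alpha genes. Pcdhgb7 was the highest variable isoform on this scale. The gamma cluster thus held most of the signal, and its C-type isoform stood above every variable isoform in each library. One annotated Pcdhgc4 transcript of 2272 bases has a first exon of only 153 bases and is otherwise made of the constant exons, so the level of this gene can include reads that no variable exon marks.

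In WT cells the summed levels of the alpha, beta and variable gamma genes were higher in EBs than in mESCs, though not every gene was. The alpha genes summed to 2.3 and 3.8 normalized counts in the WT mESC libraries and to 89.8 and 89.3 in the WT EB libraries. The beta sum went from 33.6 and 35 to 132.6 and 132.6, and the sum of the variable gamma genes from 485.9 and 493 to 919.5 and 904. For each of these sums the EB libraries lay above the mESC libraries, and for Pcdhgc4 they overlapped, at 605 and 564 in WT mESCs and 614 and 577 in WT EBs. With 1 sample a day this change has no replicate check and no test. Of the 18 tested members 9 were past a 2-fold rise and 0 past a 2-fold fall, where 18.9% and 16.3% of all tested genes were. Their median log2 change was 0.98, against 0.01 for all tested genes. Pcdha4, Pcdha10 and Pcdhb17 are among the 9 and passed the filter mainly through the WT EBs, so this count leans towards a rise. Over the 13 tested gamma genes, 5 were past a 2-fold rise and 0 past a 2-fold fall, with a median of 0.84. The rise was at least 10.1-fold for Pcdha4, at least 9.77-fold for Pcdha10 and at least 10.6-fold for Pcdhb17, each of which was under the limit of detection in both WT mESC libraries. Among the variable gamma genes it was 6.66-fold for Pcdhga5, 3.84-fold for Pcdhgb6, 3.59-fold for Pcdhgb4, 3.35-fold for Pcdhga7 and 2.03-fold for Pcdhgb5. Pcdhgb7 was 1.73-fold higher, and Pcdhgc4 was level at 1.02-fold. The WT EBs were below the WT mESCs for 3 tested members, 1.82-fold for Pcdhgb1, 1.57-fold for Pcdhb14 and 1.31-fold for Pcdhga1.

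**Figure D1:**
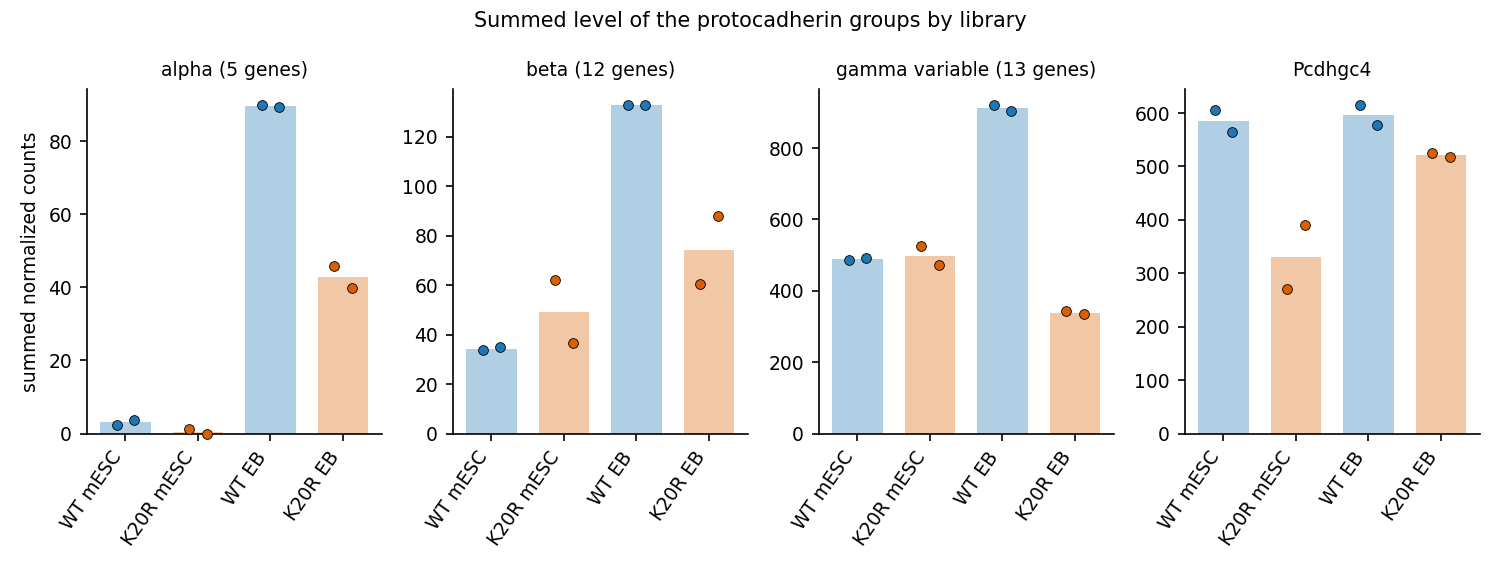
Summed normalized counts of the alpha, beta and variable gamma genes, and the level of Pcdhgc4, in each group. Points are the 2 libraries, bars their mean, and each panel has its own scale from 0. The variable gamma sum is near 339 in CTCF-K20R EBs and near 912 in WT EBs, while Pcdhgc4 is at 521 and 596.

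Variable gamma genes stood lower in CTCF-K20R EBs than in WT EBs, while the C-type isoform of the same cluster was near its WT level. The variable gamma genes summed to 344.2 and 333.6 normalized counts in the CTCF-K20R EB libraries, 2.69-fold below the WT EB mean of 912. The log2 ratio of these sums was −1.43, with −1.29 for the gamma-a genes and −1.58 for the gamma-b genes. Pcdhgc4 was at 525 and 518 in CTCF-K20R EBs against 614 and 577 in WT EBs, and its log2 fold change was −0.19 (adjusted p = 0.529, standard error 0.22, limma). Neither CTCF-K20R library of Pcdhgc4 reached the lower WT library, yet the gap was within the error of the test. Bulk libraries cannot tell fewer cells that use an isoform from less RNA of it in each cell.

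Of the 18 tested members 6 fell and 0 rose in CTCF-K20R EBs (absolute log2 fold change above 1 and adjusted p under 0.05, limma with Benjamini-Hochberg adjustment over 15767 genes). Over all tested genes, 8.65% were called lower and 6.89% higher. Another scaling of the values, quantile normalization, moved the median of all genes from 0.01 to 0.05 on the log2 scale and left the number of members called at 6. The log2 fold change was below 0 in 16 of the 18, and the median was −1.63 against 0.01 for all tested genes. In 14 of the 18 both CTCF-K20R EB libraries lay below both WT EB libraries, where 41.7% of all tested genes did so. Pcdha4, Pcdha10 and Pcdhb17 passed the filter mainly through the WT EBs, so these counts lean towards a lower mutant level. Among the 13 tested gamma genes 12 were below 0, with a median of −1.69, and 10 had their libraries wholly below. None of the 18 lay wholly above, where 43.3% of all tested genes did. Of the members below the filter, Pcdha3, Pcdha5 and Pcdhb6 lay wholly above. Pcdha9, Pcdhb11, Pcdhb16, Pcdhb20, Pcdhb21 and Pcdhga6, also below the filter, lay wholly below. The 6 members called lower were all variable gamma genes, 2 of the gamma-a and 4 of the gamma-b type, which differ in the sequence of their first exons.

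Pcdhgb6 fell the most among them. It gave 83.4 and 79.4 normalized counts in the WT EBs, against 8.04 and 9.82 in the CTCF-K20R EBs. The CTCF-K20R libraries were 9.12-fold below the WT level on average, with a wide gap between the groups. The log2 fold change was −3.06 (standard error 0.421, adjusted p = 0.00346). Pcdhgb7, the highest variable isoform, was at 140.2 and 136 in the WT EBs and at 35.5 and 34.9 in the CTCF-K20R EBs. The CTCF-K20R libraries were close to each other and far below the WT libraries, and its log2 fold change was −1.94 (standard error 0.268, adjusted p = 0.00347). These 2 genes were called lower whichever library was left out.

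Pcdhga7 was at 94.9 and 92.6 normalized counts in the WT EBs and at 10.7 and 17.5 in the CTCF-K20R EBs. The groups did not overlap, and the log2 fold change was −2.69 (standard error 0.521, adjusted p = 0.011). Pcdhga5 was at 71.1 and 65.7 against 6.86 and 14.2, so the CTCF-K20R libraries differed from each other but both lay far below the WT libraries. Its log2 fold change was −2.67 (standard error 0.554, adjusted p = 0.014). Pcdhgb5 was at 75.7 and 70.9 in the WT EBs and at 20.8 and 23.2 in the CTCF-K20R EBs, with no overlap. Its log2 fold change was −1.69 (standard error 0.325, adjusted p = 0.0106). For Pcdhgb4 the WT EBs gave 83.6 and 85.1 and the CTCF-K20R EBs 29.8 and 18.9, again without overlap. Here the log2 fold change was −1.78 (standard error 0.474, adjusted p = 0.0315). Without CTCF-K20R EB replicate 1 or without CTCF-K20R EB replicate 2 the calls of Pcdhga7, Pcdhgb4 and Pcdhgb5 were lost, and that of Pcdhga5 was lost without replicate 1 (adjusted p = 0.0584 for Pcdhga5, 0.0523 to 0.15 for the other 3), while every direction was kept.

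The remaining variable gamma genes did not pass the test. Pcdhga10 was at 80.7 and 78.8 normalized counts in the WT EBs and at 0 and 12 in the CTCF-K20R EBs. This was the largest ratio of means in the cluster, 13.3-fold, but the CTCF-K20R libraries disagreed and the log2 fold change of −4.49 had a standard error of 1.43 (adjusted p = 0.0548). It was −2.64 without CTCF-K20R EB replicate 1 and −6.34 without CTCF-K20R EB replicate 2. In these fits the disagreement of the pair no longer enters the error, so they cannot test the gene. Pcdhga10 was chosen for this account after its values were seen. Pcdhga2 was at 117 and 117 in the WT EBs and at 54.9 and 52.3 in the CTCF-K20R EBs, with no overlap (log2 fold change −1.11, standard error 0.349, adjusted p = 0.0521). For Pcdhga1 the WT EBs gave 54.3 and 53.1 and the CTCF-K20R EBs 52.7 and 61.7, so the groups overlapped (log2 fold change 0.09). Pcdhga4 overlapped too, at 41.6 and 47.6 against 58.8 and 30.6 (log2 fold change −0.07, and 0.17 after quantile normalization). Pcdhgb1 and Pcdhgb2, which are named to complete the order along the cluster, had log2 fold changes of −0.21 and −0.24, the latter 0.01 after quantile normalization. Pcdhga6, which missed the filter, was at 10.6 and 8.94 in the WT EBs and at 4.57 and 4.37 in the CTCF-K20R EBs.

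**Figure D2:**
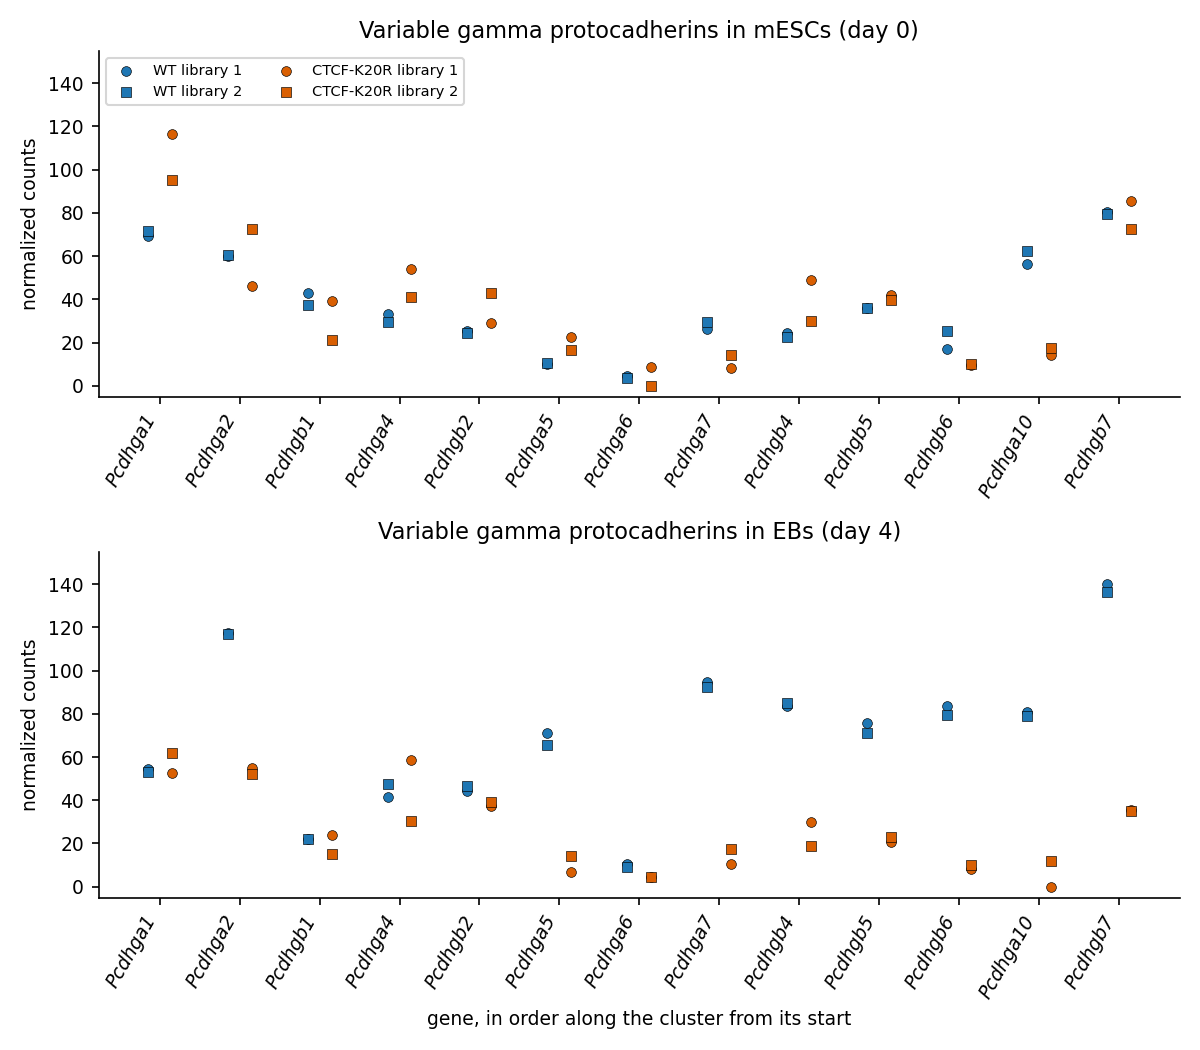
Normalized counts of the 13 variable gamma genes in mESCs (top) and EBs (bottom), in their order along the cluster. Each symbol is 1 library. In EBs the CTCF-K20R symbols of Pcdhga5 and of every gene from Pcdhga7 on lie far below the WT symbols, whereas those of Pcdhga1, Pcdhgb1 and Pcdhga4 overlap.

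The size of the change differed along the cluster. The 5 tested genes nearest its start, from Pcdhga1 to Pcdhgb2 at 28.0 kb, had log2 fold changes between −1.11 and 0.09, and 0 of them were called. The 7 tested variable genes from Pcdhga5 at 32.6 kb to Pcdhgb7 at 89.8 kb had values between −4.49 and −1.69, and 6 of them were called. This division was drawn after the values were seen. Over the 12 tested variable genes, the log2 fold change on day 4 and the distance from the start of the cluster had a Pearson r of −0.76 and a Spearman rho of −0.79. These genes share libraries and constant exons and are not independent, so the coefficient is given as a description. The same rho on day 0 was −0.33. The day 4 values also ran with the WT EB level of the gene, which enters the fold change itself (rho −0.58), and less with the share of words unique to the gene (rho −0.22). Position and WT EB level were not separated. Pcdhgc4, at 153.3 kb, lies beyond all of them and did not follow the order.

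**Figure D3:**
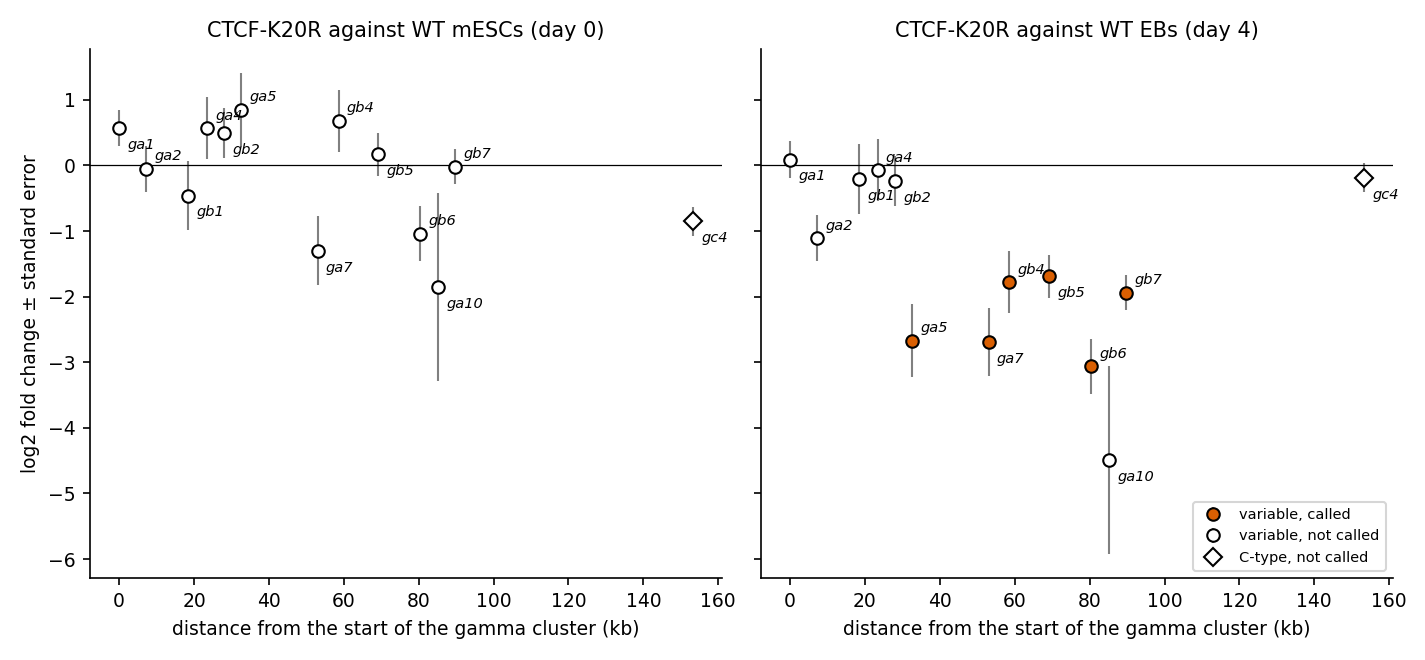
log2 fold change with its standard error of each tested gamma gene against its distance from the start of the cluster in kb, for CTCF-K20R against WT mESCs (left) and EBs (right). Gene names are shortened by their first 4 letters, circles are variable isoforms, the diamond is Pcdhgc4, and filled symbols passed the test. On the right, the 5 genes nearest the start lie between −1.11 and 0.09 and the following 7 between −4.49 and −1.69.

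The alpha and beta clusters were also lower in CTCF-K20R EBs, with 0 members called. The alpha sum was 45.9 and 39.9 normalized counts against 89.8 and 89.3 in the WT EBs (2.09-fold), and the beta sum 60.4 and 87.8 against 132.6 and 132.6 (1.79-fold). Pcdha4 was at 35.1 and 33.9 in the WT EBs and at 9.53 and 12.7 in the CTCF-K20R EBs (log2 fold change −1.56, standard error 0.703, adjusted p = 0.133). Pcdha10 was at 34.2 and 32.2 against 12.5 and 4.36 (log2 fold change −2.01, standard error 0.755, adjusted p = 0.0859). Neither gene's groups overlapped. In both the CTCF-K20R pair was wider than the WT pair, which was counted as 1 sample and does not measure a spread between replicates. Pcdha3 went the other way, at 8.80 and 9.09 in the WT EBs, against 12.5 and 14.2 in the CTCF-K20R EBs, and was below the filter. Its share of the alpha sum was 10% in WT EBs and became 27.2% and 35.5% in CTCF-K20R EBs.

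Among the beta genes, Pcdhb22 was at 48.1 and 46.7 normalized counts in the WT EBs and at 13.8 and 32.5 in the CTCF-K20R EBs (log2 fold change −1.12, standard error 0.579, adjusted p = 0.18). Pcdhb17 was at 36.2 and 35.7 against 8.91 and 11.9 (log2 fold change −1.71, standard error 0.836, adjusted p = 0.159). The CTCF-K20R libraries of both genes lay below the WT libraries. Pcdhb14 overlapped, at 8.59 and 9.97 against 8.63 and 19.2 (log2 fold change 0.44, and −0.09 without CTCF-K20R EB replicate 2). The other beta genes were at or below 14.5 normalized counts in every EB library. When all genes with any value above 0 were tested, which took in 30 members, Pcdhb11 was called lower at 7.12 and 6.02 against 1.09 and 0 (log2 fold change −2.39, adjusted p = 0.04), and Pcdhgb4 was no longer called (adjusted p = 0.069). That fit called 7.92% of all genes lower.

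**Figure D4:**
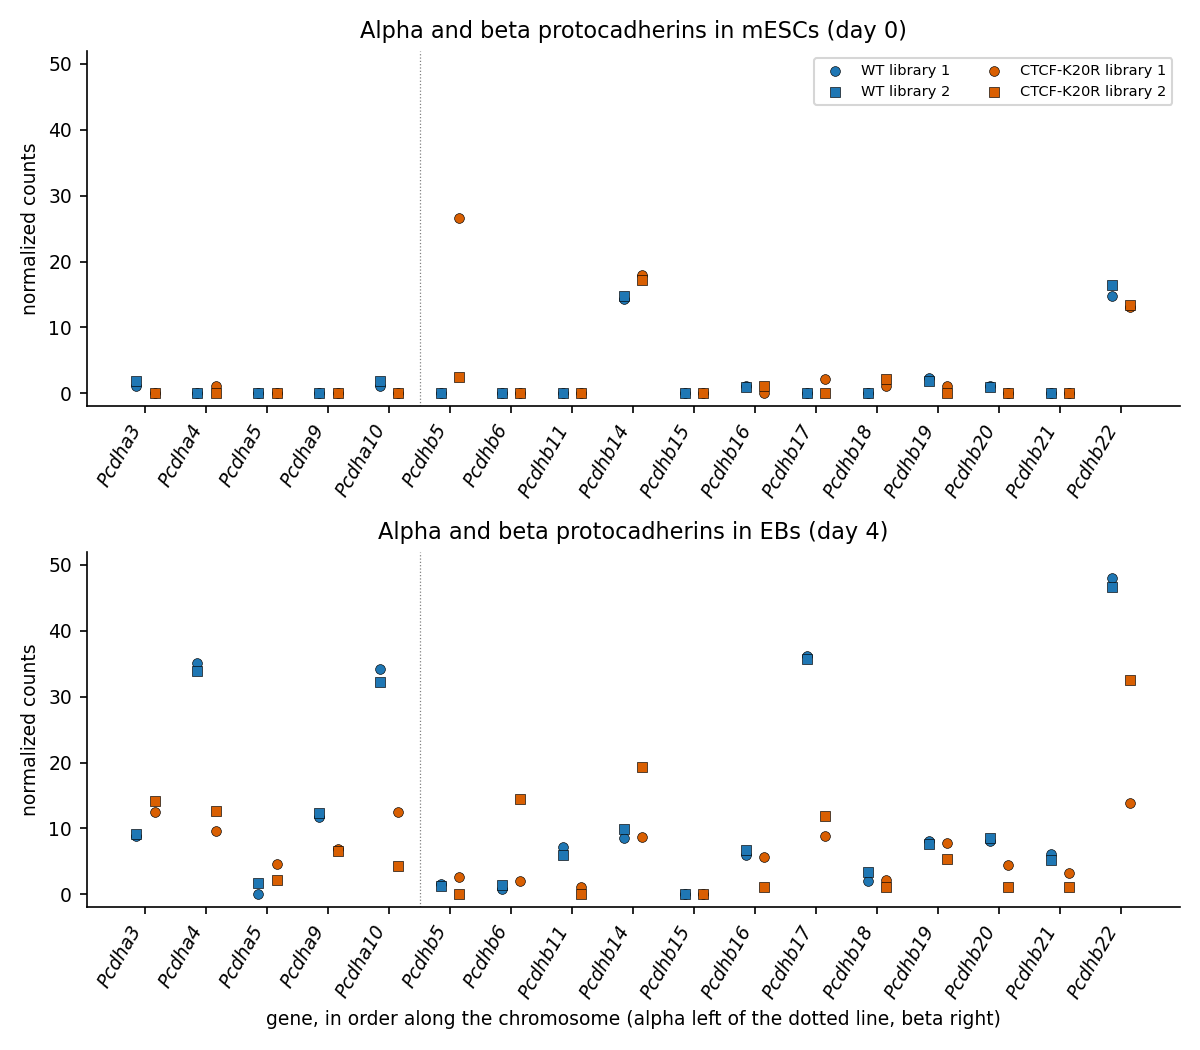
Normalized counts of the 5 alpha and 12 beta genes in mESCs (top) and EBs (bottom), in their order along the chromosome. Each symbol is 1 library. Pcdha4, Pcdha10, Pcdhb17 and Pcdhb22 stand highest in WT EBs, and their CTCF-K20R symbols lie lower, while in mESCs only Pcdhb14, Pcdhb22 and Pcdhb5 reach 10.

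On day 0, before differentiation, 0 of the 18 tested members passed the test between CTCF-K20R and WT mESCs, where 1.19% of all tested genes were called higher and 2.6% lower by limma. Quantile normalization moved the share of higher calls among all calls from 31.4% to 41.5%, and the members called stayed at 0. One member, Pcdhgc4, had an unadjusted p under 0.05. Of the 18 tested members, 7 had both CTCF-K20R libraries above the WT libraries and 6 had both below. Among all tested genes 37.6% and 40.3% did so. The median log2 fold change was 0.07. Pcdhgc4 had the smallest adjusted p. It was at 605 and 564 normalized counts in the WT mESCs and at 270 and 391 in the CTCF-K20R mESCs, which did not overlap. Its log2 fold change was −0.85 (standard error 0.22, unadjusted p = 0.01, adjusted p = 0.0581). It was −1.11 without CTCF-K20R mESC replicate 2 and −0.58 without CTCF-K20R mESC replicate 1, where the difference within this pair no longer enters the error.

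The variable gamma genes summed to 524.5 and 473 normalized counts in the CTCF-K20R mESCs and to 485.9 and 493 in the WT mESCs, a log2 ratio of 0.03. Single isoforms lay on both sides. The lowest log2 fold change was that of Pcdhga10, at 56.5 and 62.2 in the WT mESCs and 14.0 and 17.6 in the CTCF-K20R mESCs. Its groups did not overlap and differed 3.76-fold, with a log2 fold change of −1.85 and a standard error of 1.43 (adjusted p = 0.431). Pcdhga7 was at 26.5 and 29.6 in the WT mESCs and 8.27 and 14.0 in the CTCF-K20R mESCs, with no overlap (log2 fold change −1.30, adjusted p = 0.16). Pcdhgb6 was at 17.0 and 25.5 against 9.73 and 9.91, also without overlap (log2 fold change −1.04, adjusted p = 0.163). Pcdhga1 was at 69.3 and 71.8 against 116 and 95.4 (log2 fold change 0.57, adjusted p = 0.23). The difference lay in the other direction for Pcdhga1, and none of these 4 genes passed the test. Pcdhb5, which missed the filter, was at 26.7 and 2.52 in the CTCF-K20R mESCs and at 0 in both WT mESC libraries, so its level there came from 1 library.

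The effect of genotype differed between the days for 4 variable gamma genes. This was tested as the day 4 log2 fold change minus the day 0 log2 fold change, and 4 members were called lower and 0 higher, against 6.04% and 6.84% of all tested genes. Pcdhga5 was at 10.2 and 10.4 normalized counts in the WT mESCs and 22.6 and 16.5 in the CTCF-K20R mESCs. The mutant libraries thus lay higher on day 0, without passing the test (log2 fold change 0.85, adjusted p = 0.355, limma), and lower on day 4. The difference between the days was −3.52 on the log2 scale (standard error 0.784, adjusted p = 0.0264). Pcdhgb4, at 24.5 and 22.5 in WT and 49.1 and 29.8 in CTCF-K20R mESCs, also lay higher on day 0 and lower on day 4. Its day 0 log2 fold change of 0.68 did not pass the test (adjusted p = 0.386, limma). Its difference between the days was −2.46 (standard error 0.671, adjusted p = 0.0471). Pcdhgb5 was at 36.2 and 36.0 in WT and 41.9 and 39.5 in CTCF-K20R mESCs, with a difference of −1.86 (standard error 0.459, adjusted p = 0.0357). For Pcdhgb7 the mESC libraries of the genotypes overlapped, at 80.2 and 79.3 against 85.3 and 72.6, and the difference was −1.92 (standard error 0.379, adjusted p = 0.0181). The genotypes of these 4 genes were thus apart in EBs by more than in mESCs. For Pcdhgb6 and Pcdhga7, which fell on day 4 and lay lower on day 0 too, the differences of −2.02 and −1.39 did not pass the test (adjusted p = 0.0582 and 0.222). With any one of the 4 CTCF-K20R libraries left out, no more than 1 member was called for this difference, so each call rests on both CTCF-K20R libraries of both days except that of Pcdhgb7, which was kept without CTCF-K20R mESC replicate 2.

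Within CTCF-K20R cells, the change from mESCs to EBs could be tested with 2 samples on each day. Pcdha10, Pcdha4 and Pcdhb17, 3 of the 18 tested members, were called higher, and 1, Pcdhgb7, was called lower. Over all tested genes 14.5% were called higher and 11.6% lower, so these counts do not set the members apart. Pcdha4 went from 1.11 and 0 normalized counts to 9.53 and 12.7, at least 3.36-fold (fitted log2 fold change 3.05, adjusted p = 0.00611). Pcdha10 went from 0 and 0 to 12.5 and 4.36, at least 2.55-fold (3.09, adjusted p = 0.00762), and Pcdhb17 from 2.14 and 0 to 8.91 and 11.9, at least 3.14-fold (2.67, adjusted p = 0.0189). The EB libraries of each lay above the mESC libraries, as they did for 5 of the 18 tested members and for 40.6% of all tested genes, while those of 5 others lay below (39.5% of all). Pcdhgb7 went from 85.3 and 72.6 to 35.5 and 34.9 (log2 fold change −1.14, standard error 0.219, adjusted p = 0.00659), and it was 1.73-fold higher in EBs in the untested WT comparison. Pcdhga1 and Pcdhgb5 had log2 fold changes of −0.87 and −0.86 and Pcdhgc4 one of 0.68, with adjusted p of 0.0205, 0.0357 and 0.0213 but below the 2-fold minimum. The variable gamma sum was 524.5 and 473 in CTCF-K20R mESCs and 344.2 and 333.6 in CTCF-K20R EBs. Without the filter 8 members rose (13.6% of all genes were called higher), among them all 5 alpha genes. Some of these lay near the limit of detection. Pcdha5 went from 0 and 0 to 4.55 and 2.18, at least 1.02-fold, and Pcdhb21 did not exceed the limit in either group.

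The balance of isoforms in the gamma cluster followed these levels. Pcdhgc4 held 40.1% and 39% of the gamma sum in the WT EBs, against 60.4% and 60.8% in the CTCF-K20R EBs. In mESCs the order was the other way round, with 55.5% and 53.4% in WT and 34% and 45.3% in CTCF-K20R cells. Within the variable gamma genes, Pcdhga1 held 5.9% in WT EBs but 15.3% and 18.5% in CTCF-K20R EBs, and Pcdhga4 held 4.5% and 5.3% against 17.1% and 9.2%. These 2 isoforms near the start of the cluster took larger shares while their levels overlapped between the genotypes. The share of Pcdhgb6 was 9.1% and 8.8% in the WT EBs, against 2.3% and 2.9% in the CTCF-K20R EBs. That of Pcdhga7 was 10.3% and 10.2% against 3.1% and 5.2%, and that of Pcdhgb7 15.2% and 15.1% against 10.3% and 10.5%. Shares of 1 cluster are not independent of each other and were not tested.

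The genes known to act on the clusters were taken from lists. On day 4, 6.89% of all tested genes were called higher and 8.65% lower, and counts near these shares do not set a list apart. Of 15 tested genes of the CTCF and cohesin list, 1 was called higher and 0 lower on day 4. This was Ctcfl, the germline paralog of CTCF, at 6.8 and 5.8 normalized counts in the WT EBs, against 34 and 18.6 in the CTCF-K20R EBs (log2 fold change 1.85, adjusted p = 0.0383). Ctcf had a log2 fold change of 0.19 on both days (adjusted p = 0.0268 on day 4 and 0.055 on day 0), below the 2-fold minimum. Of 19 genes of repressors and DNA methylation, 3 were called higher and 0 lower on day 4. Dnmt3b, the methyltransferase that acts at these promoters, was at 14624 and 14620 in the WT EBs, against 36756 and 38180 in the CTCF-K20R EBs (log2 fold change 1.36, adjusted p = 2.84e-05). Dnmt3l, its cofactor, had a log2 fold change of 2.50, and Tet1, an enzyme that oxidises methylcytosine, one of 1.43. The CTCF-K20R libraries of these 3 genes lay above the WT libraries. Smchd1 was at 4817 and 4822 in the WT EBs, against 3633 and 3611 in the CTCF-K20R EBs (log2 fold change −0.41, adjusted p = 0.00183), below the 2-fold minimum. On day 0 only Tet3 of these lists was called, with a log2 fold change of 1.31. Of the 14 tested genes for signalling partners of the protocadherin proteins, 0 were called on day 4, and on day 0 the kinase gene Ptk2b fell by 2.00 on the log2 scale. Whether any of these differences bears on the protocadherins was not tested.

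Genes around and related to the clusters were compared next, where 6.89% of all tested genes were called higher on day 4 and 8.65% lower. Of 25 tested neighbours of the locus, 1 was called higher and 1 lower on day 4, and their median log2 fold change was 0.01. These were Rell2 (1.58) and the growth factor gene Hbegf (−2.42), and on day 0 the signalling inhibitor gene Spry4 was called higher (2.52). Taf7, a general transcription factor gene that lies between the beta and gamma clusters, was at 2769 and 2763 in the WT EBs, against 3453 and 3320 in the CTCF-K20R EBs (log2 fold change 0.29, adjusted p = 0.00633), below the 2-fold minimum. The non-clustered protocadherins and the large related cadherins are encoded outside the 3 clusters, and their distance from the locus was not considered here. Of 12 tested, 5 were called lower and 1 higher on day 4, with a median of −2.18, and 0 were called on day 0. Pcdh7 was at 3586 and 3612 normalized counts in the WT EBs, against 16.7 and 5 in the CTCF-K20R EBs (log2 fold change −8.45). Pcdh18, Pcdh19, Fat4 and Dchs1 had log2 fold changes of −2.91, −4.45, −5.89 and −2.65. Pcdh1 rose, from 617 and 628 to 2406 and 2576 (log2 fold change 2.00, adjusted p = 0.00164).

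Markers of several cell types also differed in level between the EBs of the genotypes. Over all tested genes, 6.89% were called higher in the CTCF-K20R EBs and 8.65% lower. All 8 mesoderm markers were called lower in CTCF-K20R EBs, and their summed level was 42930 to 43076 normalized counts in the WT EBs and 2418 to 2529 in the CTCF-K20R EBs. Of 8 pluripotency markers 5 were called higher and 1 lower, with sums of 16312 to 16455 and 35467 to 36208. Among 10 neural markers 3 were called higher, Sox1, Pax6 and Elavl3, with sums of 5193 to 5227 and 6041 to 6182. Of 8 tested fibroblast markers 2 were called higher and 2 lower, and the sum over all 11 was 1046 to 1096 in WT EBs, 903 to 974 in CTCF-K20R EBs, 656 to 664 in WT mESCs and 548 to 571 in CTCF-K20R mESCs. Lum was under the limit of detection in all 8 libraries, and no fibroblast marker was at 0 in all of them. The part of these markers' cell types in the protocadherin differences was not tested.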

How the data were processed

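Poly-A RNA-seq of 8 libraries was used. According to the study's methods and labels, the authors used Trim Galore for trimming, Salmon for quantification on mm10, tximport for gene-level sums and DESeq2 for normalization. The annotation release and strand setting are not given in the sources used here. The deposited signal is this normalized count per gene and library, scaled by gene and library. The step of 1 read was estimated for each library from its low values and sets the limit of detection, but whole reads of single genes were not recovered, so no count model was used.

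Values were analysed as log2(value + 1), on which scale changes of low genes are understated, for the 15767 genes averaging 10 or more. limma 3.58.1 in R 4.3.3 (lmFit, eBayes with trend, residual degrees of freedom 2 and prior ones 3.51) fitted a mean for each of 4 groups to 6 samples, since each WT pair was averaged as 1 sample. Calls needed an absolute log2 fold change above 1 and a Benjamini-Hochberg adjusted p under 0.05 (two-sided). Where a group did not exceed the limit of detection, the limit took its place and the fold is a lower bound. Sums and shares had no test.

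Replicate numbers did not pair the samples. Positions and 31-base words came from GENCODE vM21, read with Python 3.11.15, numpy 2.4.6 and pandas 2.3.3, and plots were drawn with matplotlib 3.10.9. Named with values were the C-type isoform, the 3 variable members of highest mean in the alpha, beta, gamma-a and gamma-b groups, every member called in a tested contrast and listed related genes that were called, with Ctcf, Smchd1, Dnmt3b and Taf7. Other members named were chosen after their values were seen. Members and lists were chosen with earlier results of these data known. Alternatives were another normalization, filter, pseudocount, set of samples, replicate block and call rule, and each library left out. No protocadherin sequence is reported here.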

Additional observations from a re-analysis of the deposited data

Results flagged for a closer look

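For 4 variable gamma genes the difference between CTCF-K20R and WT cells itself differed between the days by the interaction term of limma, with Benjamini-Hochberg adjustment over 15767 genes. The day 4 minus day 0 difference in log2 fold change was −3.52 for Pcdhga5, which lay higher in CTCF-K20R mESCs (0.85) and lower in CTCF-K20R EBs (−2.67). It was −2.46 for Pcdhgb4, at 0.68 on day 0 and −1.78 on day 4. For Pcdhgb5 it was −1.86, at 0.17 and −1.69, and for Pcdhgb7 it was −1.92, at −0.02 and −1.94. None of the 4 passed the test on day 0, so a reversal of the genotype effect is not shown. Both CTCF-K20R EB libraries were below both WT EB libraries for each of the 4, and no more than 1 of the 4 calls was kept when any single CTCF-K20R library was left out.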

How the results depend on the processing

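The 14 calls of single members kept their direction in all 206 alternative values, and 32 of these values no longer passed the test. Many of the settings leave the fold change nearly as it was and alter only its error or adjustment. These are the fits without the filter, with all 8 libraries, with only the libraries compared, or without a library of another group. The kept direction is no check in them. With all 8 libraries as separate samples, and in that fit with the replicate block, 12 members were called lower on day 4 (6 as reported), 2 on day 0 (0) and 9 for the difference between the days (4). Pcdha4, Pcdha10, Pcdhb17, Pcdhb22, Pcdhga2 and Pcdhga10 were added on day 4. Same-numbered libraries shared only a number, with correlations of their deviations between −0.01 and 0.024. A pseudocount of 5 called 11 members lower on day 4. For the fits with all 8 libraries and with this pseudocount the share of all genes called was not computed. Their larger counts therefore cannot be set against it. Without the filter the difference between the days had 1 call among 30 members, where 4.79% of all genes were called lower. That count does not set the members apart from all genes. In the same fit the rise within CTCF-K20R cells had 8 calls (3 as reported), where 13.6% of all genes were called higher. The fall within CTCF-K20R cells had 3 calls after quantile normalization and 3 with no minimum fold (1 as reported). With each library left out, calls ranged from 4 to 7 on day 4, from 0 to 1 on day 0, from 0 to 5 for the difference between the days, and from 2 to 3 higher and 0 to 2 lower within CTCF-K20R cells. The single library then stands for its group with the spread of the others. The log2 ratio of the alpha sum on day 4 was −0.81 after quantile normalization and −1.79 over the members that passed the filter. For the variable gamma sum quantile normalization gave −1.17 on day 4 and 0.15 on day 0, and for Pcdhgc4 −0.12 on day 4, with −0.24 to −0.15 when a library was left out. Of the variable sum alone Pcdhgb7 held 15.2% in WT EBs and 10.4% in CTCF-K20R EBs. Signs turned only for uncalled members. With each library left out, day 4 values ranged from −0.09 to 0.98 for Pcdhb14, −0.03 to 0.20 for Pcdhga1, −0.54 to 0.12 for Pcdhgb1 and −0.53 to 0.39 for Pcdhga4, and day 0 values from −0.37 to 0.27 for Pcdhga2 and −0.13 to 0.10 for Pcdhgb7. Every one of these extremes came from leaving out a CTCF-K20R library. Quantile normalization gave 0.17 for Pcdhga4 and 0.01 for Pcdhgb2 on day 4, and 0.04 for Pcdhga2 and 0.10 for Pcdhgb7 on day 0. The cause of these shifts was not tested. On day 0 both genotypes were at or under the limit of detection for all 5 alpha members and 9 of the 12 beta members, so no fold is given for them there.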
